A study of Homo sapiens with 12 samples.

Results

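Ra was the compound tested in HK-2 cells, an immortalized line of human kidney proximal tubule epithelium, and the quantity described here is how far its effect on gene expression moved between 12 h and 48 h of exposure. For each gene the mean log2 expression of Ra-treated cells minus that of control cells was taken at 48 h and at 12 h, and the second was subtracted from the first. This double difference is called the shift: it is negative where Ra cells stood lower against their controls at 48 h than they had at 12 h, whatever the sign at either time. It was obtained for 8251 genes of the 19775 that the arrays measure with a probe set of 1 gene symbol. A gene entered where at least 3 of the 12 arrays reached 7 log2 units after quantile normalization, and its brightest probe set on average stood for it. A shift is called where its limma test passed 0.05 after Benjamini-Hochberg adjustment over the 8251 genes.

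The 4 groups were HK-2 cells with Ra for 12 h, their controls at 12 h, HK-2 cells with Ra for 48 h, and their controls at 48 h, with 3 arrays each, numbered by replicate. Controls received the vehicle, and all cells were exposed at near confluency, a day after seeding, in a medium with epidermal growth factor, insulin and hydrocortisone. What Ra stands for, its dose and the vehicle are not stated here, and a single cell line was used. The series asked for signatures of kidney toxicity among several compounds. The replicates are labelled biological, without saying what separated them, so the p-values measure the spread between these samples.

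Replicates were tighter at 12 h than at 48 h: the median SD of a gene was 0.112 in controls and 0.12 with Ra at 12 h, against 0.214 and 0.203 at 48 h. In the deposited values, replicate 2 of Ra at 48 h stood apart, with a 75th percentile of 6.3 log2 units against 7.01 to 7.21 on the other 11 arrays. Quantile normalization gave all arrays 1 distribution, and the shift depended on it. Of 24 proximal tubule markers, 20 were on the array and 15 of these stayed under 5 log2 units on all 12 arrays, among them LRP2, CUBN and AQP1. The 4 that could be tested were PAX8, SLC3A1, SLC17A3 and ABCB1, and 1 of them, the efflux pump ABCB1, had a called shift, higher by 0.90. No endothelial, immune or distal nephron marker passed the expression filter. Of 6 podocyte markers 5 were on the array and 1, PTPRO, passed, with group means of 12.9 to 13.3 log2 units and no called shift. The podocyte markers SYNPO and PODXL reached 7.7 and 7.03 on their highest array without passing. Of 9 fibroblast markers 4 passed it (DCN, LUM, COL1A1 and ACTA2), and the mean over that marker list ranged from 5.03 to 5.59 log2 units over all arrays.

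Among the lists examined, those with the most called genes for their size included lists of the integrated stress response and of the cell division cycle. In the first, kinases that sense amino acid shortage, unfolded protein in the endoplasmic reticulum (ER) or other stress phosphorylate the initiation factor eIF2, general translation slows, and the mRNA of the transcription factor ATF4 is translated instead. ATF4 with C/EBP partners switches on genes for amino acid uptake and synthesis, transfer RNA charging and the CHOP branch, and binds a composite C/EBP-ATF element. In the second, E2F factors switch on replication genes as cells pass from G1 into S phase, and a later wave of genes drives mitosis. What moved either programme in these cells was not tested.

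Some promoters of stress genes and replication genes with called shifts hold these elements. The 250 bases before the start site are printed for the 4 ATF4-linked genes and the 3 replication genes with the largest called shifts among those whose window holds the element before the start (RefSeq, GRCh38.p14). They are written 5′ to 3′ on the gene's strand, and capitals mark the matched letters. The composite element was searched as TGATGNAA on both strands.
ATF3: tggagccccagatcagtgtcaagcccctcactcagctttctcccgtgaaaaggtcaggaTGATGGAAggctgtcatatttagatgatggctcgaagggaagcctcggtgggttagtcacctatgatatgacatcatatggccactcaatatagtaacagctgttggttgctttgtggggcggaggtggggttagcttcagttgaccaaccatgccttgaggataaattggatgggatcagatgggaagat
ASNS: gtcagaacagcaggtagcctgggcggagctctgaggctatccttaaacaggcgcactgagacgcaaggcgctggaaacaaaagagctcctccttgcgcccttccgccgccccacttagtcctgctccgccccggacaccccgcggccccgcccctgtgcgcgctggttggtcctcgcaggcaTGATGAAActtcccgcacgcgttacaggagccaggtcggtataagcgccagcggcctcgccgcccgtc
AARS1: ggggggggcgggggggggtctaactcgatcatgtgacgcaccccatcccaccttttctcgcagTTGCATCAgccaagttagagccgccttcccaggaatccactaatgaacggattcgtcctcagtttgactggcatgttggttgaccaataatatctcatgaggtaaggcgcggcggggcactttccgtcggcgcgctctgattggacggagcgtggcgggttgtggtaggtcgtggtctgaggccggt
CEBPG: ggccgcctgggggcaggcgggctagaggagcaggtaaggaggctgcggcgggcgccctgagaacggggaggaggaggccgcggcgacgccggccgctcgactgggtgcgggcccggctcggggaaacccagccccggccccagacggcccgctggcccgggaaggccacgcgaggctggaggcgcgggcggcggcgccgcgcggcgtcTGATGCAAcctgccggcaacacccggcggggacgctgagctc
The positions are chr1:212565157-212565406 on the plus strand for ATF3, chr7:97872409-97872658 on the minus strand for ASNS, chr16:70289507-70289756 on the minus strand for AARS1, and chr19:33373863-33374112 on the plus strand for CEBPG. The match begins 191 bases before the start in ATF3, 68 in ASNS, 187 in AARS1 and 42 in CEBPG. For replication genes the E2F letters TTTCCCGC and TTTGGCGC were searched on both strands.
LIG1: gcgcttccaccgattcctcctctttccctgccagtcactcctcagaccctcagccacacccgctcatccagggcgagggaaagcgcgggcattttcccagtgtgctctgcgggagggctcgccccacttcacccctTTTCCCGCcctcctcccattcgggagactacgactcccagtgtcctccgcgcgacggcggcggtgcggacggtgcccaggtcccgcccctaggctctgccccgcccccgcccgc
UHRF1: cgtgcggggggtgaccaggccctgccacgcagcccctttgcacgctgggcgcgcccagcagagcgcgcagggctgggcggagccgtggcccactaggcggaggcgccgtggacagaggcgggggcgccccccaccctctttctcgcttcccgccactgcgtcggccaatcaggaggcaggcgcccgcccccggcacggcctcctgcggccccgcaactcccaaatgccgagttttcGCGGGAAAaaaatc
GINS2: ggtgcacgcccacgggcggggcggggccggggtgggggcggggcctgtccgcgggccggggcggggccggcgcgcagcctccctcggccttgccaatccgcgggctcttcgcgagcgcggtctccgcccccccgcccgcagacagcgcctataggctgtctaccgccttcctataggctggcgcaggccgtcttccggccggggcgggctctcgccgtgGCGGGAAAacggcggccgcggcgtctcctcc
These lie at chr19:48170345-48170594 on the minus strand for LIG1, chr19:4909251-4909500 on the plus strand for UHRF1, and chr16:85688955-85689204 on the minus strand for GINS2, with matches that begin 114, 14 and 31 bases before the start.

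In windows of 300 bases, from 250 before to 50 after a start, the composite letters occurred in 17 of the 50 tested genes with a window in 5 ATF4-linked lists (34.0%). Those lists hold stress regulators, stress hormones, amino acid transporters, amino acid synthesis and transfer RNA synthetases. Among their genes called lower, 12 of 26 held the letters (46.2%). Over all tested genes with a window, 191 of 6948 held them (2.75%), and among all 35116 windows given by RefSeq 3.62% did. The E2F letters occurred in 20 of 40 replication genes and in 9 of the 17 of these called higher (52.9%), against 5.07% of tested genes and 2.27% of all windows. No replication gene held the composite letters, and among all genes called lower and called higher, 7.34% and 3.24% held them. A gene with several windows was counted if any held the letters. A match describes the sequence and does not show binding. Among all genes with a window called higher and called lower, 9.49% and 3.02% held the E2F letters. In the list of G2 and mitosis 5.71% did. Replication genes called higher held the E2F letters about as often as their whole list. That share therefore describes the list and does not set its called genes apart. Whether the composite letters go with a call inside the ATF4-linked lists was not tested.

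The shift was called in 1054 of 8251 genes (12.8%), 510 higher (6.18%) and 544 lower (6.59%), and 469 of these reached 2-fold. The smallest adjusted p was 0.0134, and 2722 genes had an unadjusted p under 0.05. In the same fit Ra differed from control in 205 genes at 12 h (2.48%) and in 2839 at 48 h (34.4%). This fit gives all arrays 1 spread per gene, although replicates were tighter at 12 h. With arrays weighted by time the counts were 1778 at 12 h and 1481 at 48 h, so their order rests on that choice, and at 12 h only 3 genes were called when Ra array 1 of 12 h was left out. The shift itself was called in 1174 genes with weights by time. Control cells at 48 h differed from control cells at 12 h in 3501 genes (42.4%), and Ra cells at 48 h from Ra cells at 12 h in 209 (2.53%). The typical called gene was therefore one that moved with time in the controls and little in the Ra cells. Among genes called lower, the median log2 change from 12 h to 48 h was 0.87 in controls and -0.09 with Ra. Among genes called higher it was -0.86 in controls and 0.03 with Ra. The change in controls was the larger of the pair in 956 of the 1054 (90.7%, against 69.4% of all tested genes).

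**Figure D1:**
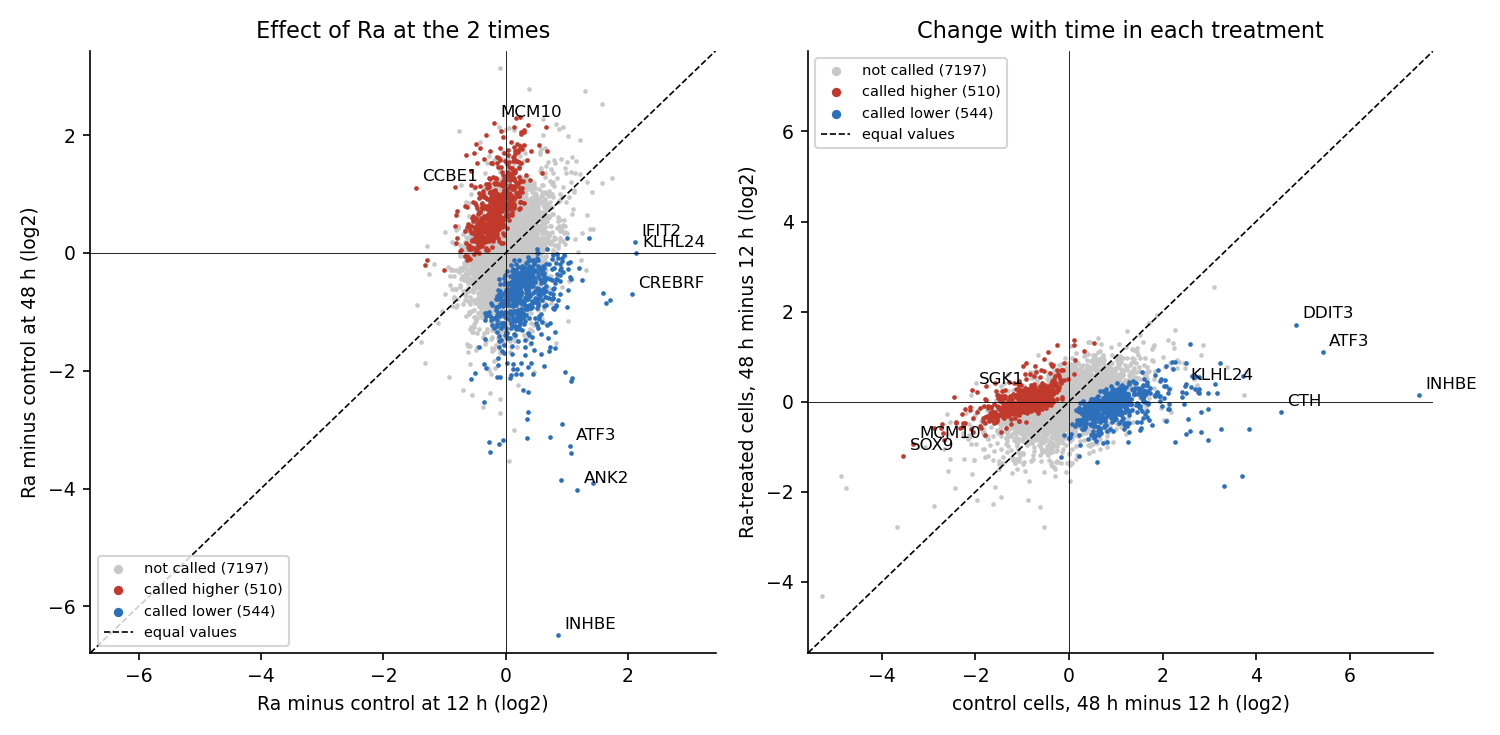
Each point is 1 of 8251 genes, in log2 units. Left, the effect of Ra at 12 h (x) and at 48 h (y). Right, the change from 12 h to 48 h in control cells (x) and in Ra-treated cells (y). Red and blue mark the 510 genes called higher and the 544 called lower. On the left they lie mostly above and below zero at 48 h near zero at 12 h, and on the right they stretch along the control axis, out to 7.49 for INHBE.

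With an effect counted as up or down from 0.5 log2 units, 335 of the 510 higher genes (65.7%) were within that range at 12 h and up at 48 h. Of the 544 lower genes, 313 (57.5%) were within it at 12 h and down at 48 h. A further 73 lower genes (13.4%) were up at 12 h and down at 48 h, and 57 (10.5%) were up at 12 h and within the range at 48 h. Among higher genes 17 (3.33%) were down and then up, and 35 (6.86%) were down and then within the range. In the order given, the shares over all tested genes were 14%, 13.7%, 1.16%, 2.62%, 0.315% and 2.11%. The genes were called by the difference between the 2 effects, so a move in the called direction was built into each set. Across all tested genes the Ra effects at the 2 times were weakly correlated (r = 0.104, rho = 0.119 over 8251 genes, which are not independent replicates; no array is shared between the times).

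How many genes were called depended on single arrays and on the scaling. With control array 3 of 48 h left out the count was 2366 and with Ra array 1 of 48 h left out it was 1678. Leaving out any of the other 10 arrays lowered it, to 109, 289 and 407 for Ra arrays 1, 2 and 3 of 12 h, and to 374, 165 and 225 for the control arrays of 12 h in the same order. It was 453 and 333 for Ra arrays 2 and 3 of 48 h and 533 and 276 for control arrays 1 and 2 of 48 h. All 1054 called genes kept the sign of their shift without each array in turn. They had been called on these same arrays, so a kept sign was close to built in and is no measure of stability. With the deposited values left unscaled, 43 genes were called, 1 higher and 42 lower, and the median shift of all genes was -0.2 instead of 0.03. With each array centred on its median, 34 were called, 1 higher and 33 lower, and that median was -0.235. Leaving out replicate 2 of Ra at 48 h as well, a check added after these counts were seen, gave 216 higher and 207 lower with the deposited values.

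The counts of every list below are to be read against the 6.18% of all genes called higher and 6.59% called lower. Among the gene lists, stress regulators of the ATF4 pathway had the lowest median shift. Among 16 tested stress regulators 9 were called lower and 0 higher, where 6.59% of all genes were called lower, and the median shift was -1.84 against 0.03 over all genes. The median Ra effect was 0.11 at 12 h and -1.63 at 48 h. The mean level of the list against its 12 h control mean was 2.14, 2.20 and 2.07 on the control arrays at 48 h, and 1.43, 0.25 and -0.01 on the Ra arrays at 48 h. Every array at 12 h lay between -0.19 and 0.27. Replicate 1 of Ra at 48 h stood closer to the controls than the other two did, and no Ra array reached a control array.

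ATF3 encodes a transcription factor induced downstream of ATF4. Its log2 values were 6.87, 5.57 and 7.08 in control cells at 12 h, 7.92, 7.41 and 7.34 with Ra at 12 h, 11.82, 12.16 and 11.81 in control cells at 48 h, and 9.95, 8.68 and 7.34 with Ra at 48 h. Control cells at 48 h were well above every other array, and Ra cells were above controls at 12 h and below them at 48 h, with no overlap at either time. The Ra effect was 1.05 at 12 h (limma, adjusted p = 0.299) and -3.28 at 48 h (adjusted p = 0.00187), and the shift was -4.33 ± 0.75 (SE, limma, adjusted p = 0.0142), a 20.1-fold change in the ratio of Ra to control. It was called in all 12 fits with 1 array left out.

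DDIT3 encodes CHOP, the factor that links prolonged stress to cell death. Its values were 8.47, 8.18 and 8.37 in control cells at 12 h, 8.39, 7.92 and 8.39 with Ra at 12 h, 13.84, 13.31 and 12.43 in control cells at 48 h, and 11.83, 9.79 and 8.21 with Ra at 48 h. The 12 h groups overlapped, and at 48 h all 3 Ra arrays were below the controls but spread from 8.21 to 11.83. The shift was -3.14 ± 0.92 (SE, limma, adjusted p = 0.0449), and it was called in 2 of the 12 fits with 1 array left out. ERN1, the ER stress sensor IRE1, shifted by -3.13 ± 0.91 (SE, limma, adjusted p = 0.0437). ATF4 itself shifted by -1.14 ± 0.34 (SE, limma, adjusted p = 0.0461). The feedback genes PPP1R15A, which restores translation, and TRIB3, a pseudokinase that restrains ATF4, shifted by -2.22 (limma, adjusted p = 0.0134) and -1.81 (adjusted p = 0.0162). CHAC1, which degrades glutathione, shifted by -3.14, did not pass (limma, adjusted p = 0.0926) and lay under 5 log2 units on all 12 h arrays. ATF5 was the only one of the 16 with a positive value, 0.83 (limma, adjusted p = 0.0903). The count of 9 became 14 with Ra array 1 of 48 h left out and 10 with control array 3 of 48 h left out, and lay between 3 and 5 with any 1 of the other arrays left out; with the deposited values unscaled it was 4.

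Of 4 tested stress hormones and secreted factors 2 were called lower and 0 higher, and the count was 0 to 3 with 1 array left out and 0 with the deposited values unscaled. INHBE encodes a subunit of activin E and is a target of the ATF4 pathway. Its values were 5.53, 3.30 and 4.33 in control cells at 12 h, 5.50, 3.89 and 6.33 with Ra at 12 h, 12.35, 11.88 and 11.40 in control cells at 48 h, and 9.45, 3.39 and 3.31 with Ra at 48 h. At 12 h the groups overlapped near the bottom of the scale, and at 48 h the controls stood high while 2 of the 3 Ra arrays stayed near the bottom. The shift was -7.34 ± 1.83 (SE, limma, adjusted p = 0.0295), the largest of all genes, and it was called in 4 of the 12 fits with 1 array left out. Values under 5 are dim on this scale, and the deposited values had been background-corrected by their authors before the log was taken. GDF15, a stress hormone that acts on appetite, shifted by -1.65 ± 0.46 (SE, limma, adjusted p = 0.039), with Ra above control at 12 h on all arrays (effect 1.02, limma, adjusted p = 0.113) and overlapping groups at 48 h. VEGFA shifted by -1.39 and STC2 by -0.55, and neither passed (limma, adjusted p = 0.0819 and 0.632); another probe set of STC2 gave -1.85.

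**Figure D2:**
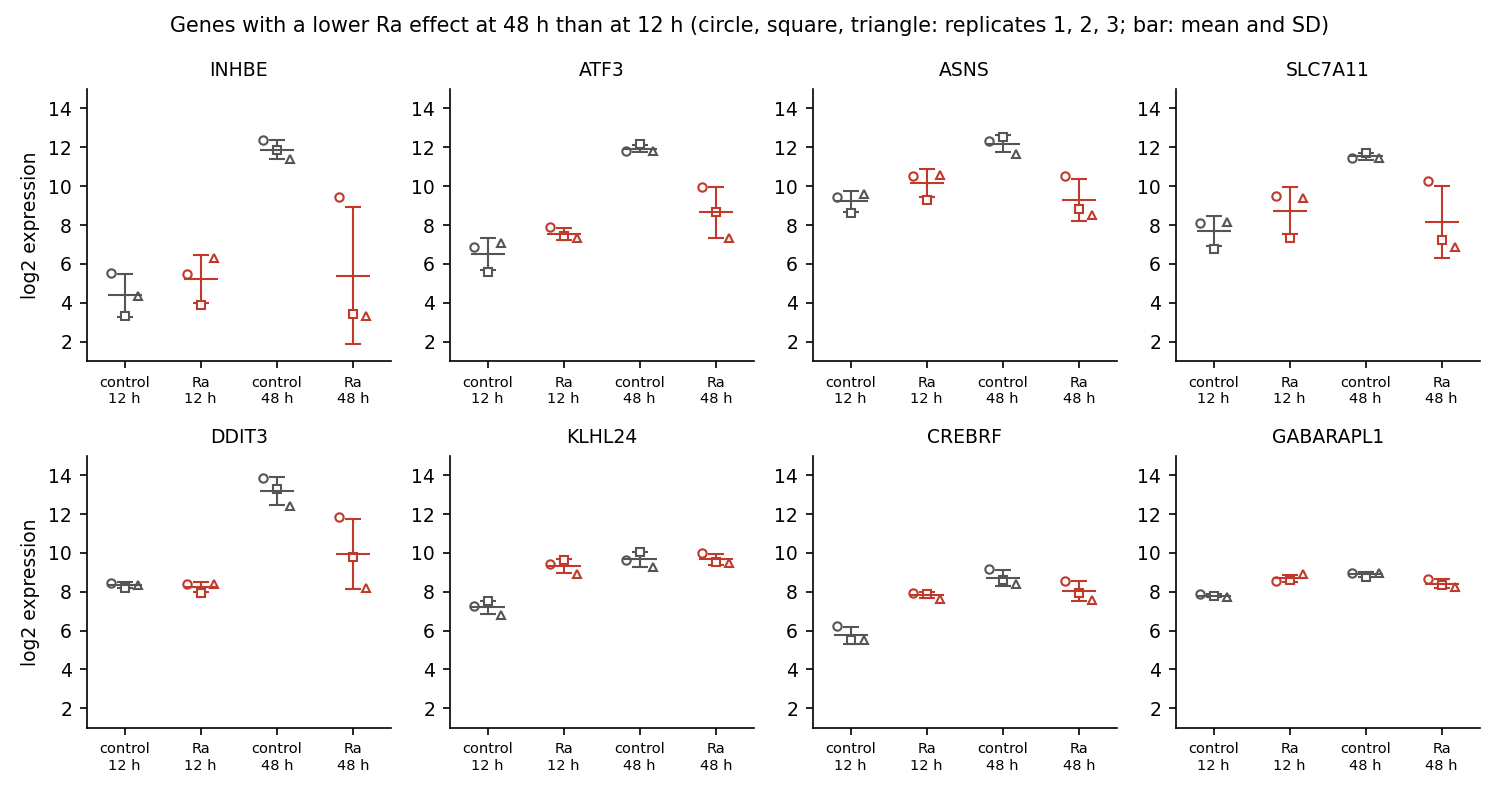
Log2 expression of 8 genes called lower on each of the 12 arrays, by group. Circles, squares and triangles are replicates 1, 2 and 3, the long bar is the mean and the whiskers are 1 SD. For INHBE, ATF3, ASNS, SLC7A11 and DDIT3 the controls at 48 h stand above all other groups. For KLHL24, CREBRF and GABARAPL1 the controls at 12 h stand below the other groups.

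Of 11 amino acid transporters 6 were called lower and 1 higher. SLC7A11 imports cystine in exchange for glutamate. Its values were 8.12, 6.78 and 8.13 in control cells at 12 h, 9.48, 7.36 and 9.39 with Ra at 12 h, 11.43, 11.72 and 11.44 in control cells at 48 h, and 10.26, 7.25 and 6.88 with Ra at 48 h. Controls at 48 h lay above 11.4 on all arrays, while Ra arrays reached at most 10.26. The shift was -4.46 ± 1.09 (SE, limma, adjusted p = 0.028), called in 4 of the 12 fits with 1 array left out, and a second probe set gave -4.04. Its partner chain SLC3A2 and the large neutral amino acid carrier SLC7A5, which form 1 transporter, shifted by -2.15 ± 0.52 (SE, limma, adjusted p = 0.0273) and by -2.30 ± 0.64 (limma, adjusted p = 0.0386). The neutral carrier SLC1A4 shifted by -1.53 (limma, adjusted p = 0.0142), from an effect of 0.77 at 12 h to -0.76 at 48 h. The taurine transporter SLC6A6 was the 1 called higher, by 1.03 (limma, adjusted p = 0.0404). The median of the list was -0.58. The 6 became 7 with Ra array 1 of 48 h or control array 3 of 48 h left out and 1 to 5 with any 1 of the others left out, and 0 with the deposited values unscaled.

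Of 13 genes of amino acid and one-carbon synthesis 7 were called lower and 0 higher, with a median of -1.31. ASNS makes asparagine and is a classical ATF4 target. Its values were 9.45, 8.61 and 9.61 in control cells at 12 h, 10.54, 9.31 and 10.56 with Ra at 12 h, 12.35, 12.55 and 11.68 in control cells at 48 h, and 10.54, 8.82 and 8.51 with Ra at 48 h. The 12 h groups overlapped, and at 48 h all Ra arrays were below all controls. The effect was 0.91 at 12 h and -2.90 at 48 h, and the shift was -3.82 ± 0.70 (SE, limma, adjusted p = 0.0145), called in all 12 fits with 1 array left out. CTH, which makes cysteine from cystathionine, read 7.63, 6.99 and 7.14 in control cells at 12 h, 8.44, 7.88 and 8.16 with Ra at 12 h, 12.10, 12.05 and 11.20 in control cells at 48 h, and 10.73, 6.75 and 6.32 with Ra at 48 h. Its shift was -4.76 ± 1.17 (SE, limma, adjusted p = 0.0286), called in 2 of the 12 fits with 1 array left out. ALDH1L2, a mitochondrial folate enzyme, shifted by -5.33 ± 0.93 (SE, limma, adjusted p = 0.0142); it passed the expression filter only through the controls at 48 h, where it was high, so a difference there was built into its selection. In the serine pathway PHGDH and SHMT2 shifted by -1.80 and -1.51, and the folate enzyme MTHFD2 by -1.31 (limma, adjusted p = 0.0142, 0.019 and 0.0263). The 7 became 9 with Ra array 1 of 48 h or control array 3 of 48 h left out and 4 to 6 with any 1 of the others left out, and 4 with the deposited values unscaled.

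Of 17 cytosolic aminoacyl-tRNA synthetases, which charge transfer RNAs, 8 were called lower and 0 higher, with a median of -0.61. The called enzymes were AARS1, WARS1, GARS1, CARS1, YARS1, SARS1, IARS1 and NARS1. AARS1 read 9.47, 9.04 and 9.48 in control cells at 12 h, 9.95, 9.48 and 9.82 with Ra at 12 h, 12.03, 11.60 and 10.71 in control cells at 48 h, and 10.31, 9.04 and 9.39 with Ra at 48 h. Controls at 48 h were above all Ra arrays at 48 h, and the 12 h groups overlapped. Its shift was -2.29 ± 0.48 (SE, limma, adjusted p = 0.019). Synthetases without a called shift included RARS1 at 0.16, HARS1 at 0.41 and FARSB at 0.47. The 8 became 11 with Ra array 1 of 48 h or control array 3 of 48 h left out and 0 to 6 with any 1 of the others left out; with the deposited values unscaled it was 0.

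ER chaperones and the unfolded protein response gave 9 lower and 0 higher calls among 29 tested genes, and the shift was negative in all 29. The median was -1.14, from a median effect of 0.22 at 12 h to -1.06 at 48 h. The list's level on the 3 control arrays at 48 h was uneven: 1.99, 1.42 and 0.27 above the 12 h control mean. On the Ra arrays at 48 h it was 0.43, 0.04 and 0.10, so control replicate 3 lay among the Ra arrays. DNAJB9, an ER co-chaperone and XBP1 target, read 8.80, 8.37 and 8.54 in control cells at 12 h, 9.68, 9.40 and 9.53 with Ra at 12 h, 12.71, 12.55 and 9.95 in control cells at 48 h, and 10.66, 9.04 and 9.46 with Ra at 48 h. Control replicate 3 at 48 h lay below replicate 1 of Ra, and the shift was -2.98 ± 0.84 (SE, limma, adjusted p = 0.0402). XBP1, the factor spliced by IRE1, shifted by -1.95 (limma, adjusted p = 0.0142). HSPA5, the main ER chaperone BiP, shifted by -1.78 (limma, adjusted p = 0.0289), and EIF2AK3, the eIF2 kinase PERK, by -1.14 (adjusted p = 0.0368). The 9 became 27 with control array 3 of 48 h left out, 8 with Ra array 1 of 48 h left out, and 1 to 3 with any 1 of the others left out; with the deposited values unscaled it was 1.

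**Figure D3:**
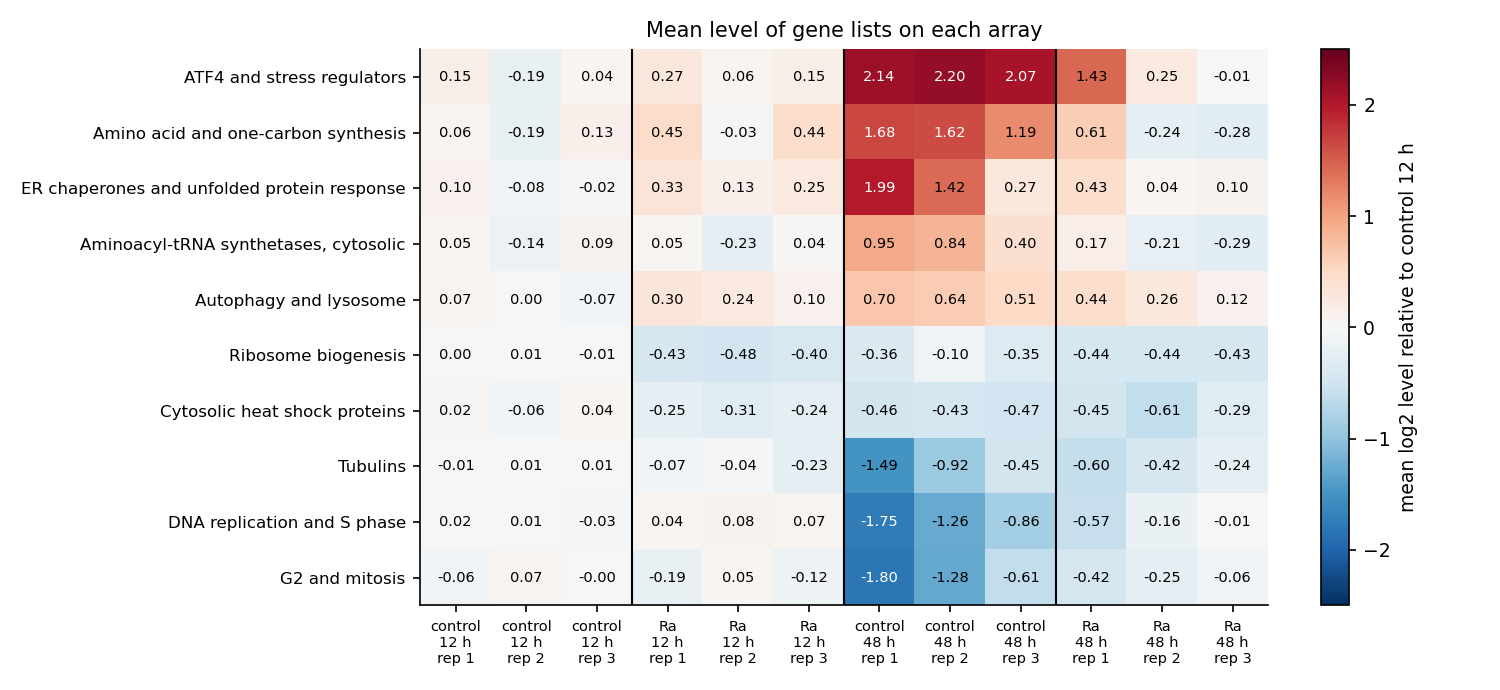
Mean log2 level of the tested members of 10 gene lists on each of the 12 arrays, relative to the mean of the 3 control arrays at 12 h, with red for higher and blue for lower. The 3 control arrays at 48 h stand apart from all others for ATF4 regulators (2.07 to 2.20) and for G2 and mitosis (-1.80 to -0.61), while in the ER and tubulin rows control replicate 3 at 48 h lies within the range of the Ra arrays, and they differ among themselves most in the ER, mitosis and tubulin rows.

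A smaller set was lower where Ra cells had been above control at 12 h and controls stood at a similar level at 48 h. KLHL24, an E3 ligase adaptor, read 7.25, 7.52 and 6.82 in control cells at 12 h, 9.44, 9.62 and 8.92 with Ra at 12 h, 9.66, 10.05 and 9.30 in control cells at 48 h, and 9.99, 9.51 and 9.49 with Ra at 48 h. Ra was above control on all arrays at 12 h, and at 48 h the groups overlapped at the level that Ra cells already had at 12 h. Its effect was 2.13 at 12 h (limma, adjusted p = 0.0034), the means at 48 h were 9.67 in each group, and the shift was -2.13 ± 0.35 (SE, limma, adjusted p = 0.0142). Of its other probe sets, 1 gave -2.46, and 2 of types that can cross-hybridise gave -2.75 and 0.05. CREBRF, a regulator of the stress factor CREB3, read 6.24, 5.51 and 5.50 in control cells at 12 h, 7.93, 7.87 and 7.65 with Ra at 12 h, 9.17, 8.59 and 8.39 in control cells at 48 h, and 8.57, 7.93 and 7.56 with Ra at 48 h. Controls at 12 h were lowest, and at 48 h the groups overlapped, with an effect of -0.70 (limma, adjusted p = 0.0752) after 2.07 at 12 h (adjusted p = 0.0109). Its shift was -2.77 ± 0.40 (SE, limma, adjusted p = 0.0134), and it was called under all 28 alternative settings.

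KLHL24, CREBRF and CCNG2 belong to a list of FOXO targets and quiescence genes, in which 4 of 14 tested genes were called lower and 1 higher, with a median of -0.44. CCNG2, an unconventional cyclin that rises when cells stop growing, was at 10.88, 10.82 and 10.83 in controls at 12 h and at 11.72, 11.78 and 11.66 with Ra. At 48 h it was at 11.72, 11.77 and 11.50 in controls and at 11.58, 11.32 and 11.54 with Ra. Ra cells were higher at 12 h with no overlap, and the groups overlapped at 48 h. The shift was -1.06 ± 0.14 (SE, limma, adjusted p = 0.0134), called in all 12 fits with 1 array left out. YPEL5 was the fourth, at -0.87 (limma, adjusted p = 0.0229), and the mRNA-decay factor ZFP36L2 was the 1 called higher, at 0.74 (adjusted p = 0.0417). PDK4 and TXNIP had positive shifts that did not pass. The 4 became 3 to 6 with 1 array left out, and 2 with the deposited values unscaled.

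Of 34 autophagy and lysosome genes 8 were called lower and 0 higher, with a median of -0.55. GABARAPL1, which coats autophagosomes, read 7.87, 7.81 and 7.73 in control cells at 12 h, 8.57, 8.60 and 8.89 with Ra at 12 h, 8.97, 8.73 and 8.98 in control cells at 48 h, and 8.67, 8.34 and 8.27 with Ra at 48 h. Ra was above control at 12 h (effect 0.89, limma, adjusted p = 0.0146) and below it at 48 h (-0.47, adjusted p = 0.0242), with no overlap at either time. The shift was -1.36 ± 0.20 (SE, limma, adjusted p = 0.0134). The autophagy receptor SQSTM1 shifted by -1.31 ± 0.26 (SE, limma, adjusted p = 0.0165), from 0.66 to -0.65, and its other probe sets gave -1.40 and -0.26. WIPI1 and MAP1LC3B, which act in autophagosome formation, shifted by -1.91 (limma, adjusted p = 0.0283) and -1.10 (adjusted p = 0.016). RRAGD, NPC1, FNIP1 and TFE3 were the other 4. The 8 became 16 with control array 3 of 48 h left out, 13 with Ra array 1 of 48 h left out and 1 to 6 with any 1 of the others left out; with the deposited values unscaled it was 2.

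Hypoxia-response genes outside glycolysis gave 5 lower calls among 15 and 0 higher, with a median of -0.56. NDRG1 shifted by -1.67 ± 0.38 (SE, limma, adjusted p = 0.0226), MXI1 by -1.15 (limma, adjusted p = 0.0441), and the histone demethylase KDM3A by -0.73 (adjusted p = 0.0269). BNIP3L, a mitophagy receptor, was above control at 12 h (0.67, limma, adjusted p = 0.0109) and level with it at 48 h (0.06). ERO1A, also an ER oxidase in the ER list, was the fifth. NRF2 targets and ferritin gave 5 lower calls and 1 higher among 20, with a median of -0.34. SLC7A11, counted above as a transporter, was 1 of the 5. GCLC, which makes the first step to glutathione, shifted by -1.16 (limma, adjusted p = 0.0172), and HMOX1 by -1.58 without passing (adjusted p = 0.061). KEAP1, the inhibitor of NRF2, was the 1 called higher, at 0.59 (limma, adjusted p = 0.0418). Without any 1 array the hypoxia count lay between 0 and 6 and the NRF2 count between 0 and 6, both 0 with Ra array 1 of 12 h left out and the first also with control array 2 of 12 h left out, and both were 0 with the deposited values unscaled.

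Interferon-stimulated genes were above control at 12 h by a median of 0.44 over 21 tested genes and by 0.18 at 48 h. IFIT2, an antiviral RNA-binding protein, read 7.94, 7.78 and 6.54 in control cells at 12 h, 9.57, 10.25 and 8.77 with Ra at 12 h, between 7.99 and 8.04 in control cells at 48 h, and 8.16, 8.02 and 8.41 with Ra at 48 h. Ra was higher on all arrays at 12 h (effect 2.11, limma, adjusted p = 0.0209), and the groups overlapped at 48 h, where both were near 8. The shift was -1.93 ± 0.52 (SE, limma, adjusted p = 0.037), called in 4 of the 12 fits with 1 array left out. IFIH1, the RNA sensor MDA5, shifted by -1.29 ± 0.36 (SE, limma, adjusted p = 0.0385). These were the 2 of 21 called lower, a share near the 6.59% of all genes, and 0 were called higher; OAS3 had a positive value of 1.22 (limma, adjusted p = 0.0918). The 2 became 4 with control array 3 of 48 h left out and 3 with Ra array 3 of 12 h or Ra array 1 of 48 h left out, and 0 or 1 with any 1 of the others left out. With the deposited values unscaled 0 were called.

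On the higher side stood the division cycle. Of 47 tested genes of DNA replication and S phase 20 were called higher and 0 lower, where 6.18% of all genes were called higher, and the median was 0.97. The median effect was 0.05 at 12 h and 1.08 at 48 h. The level of the list on the control arrays at 48 h was -1.75, -1.26 and -0.86 against the 12 h controls, and on the Ra arrays at 48 h -0.57, -0.16 and -0.01. All Ra arrays at 48 h thus stood above all control arrays at 48 h. All 12 h arrays lay between -0.03 and 0.08.

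MCM10 is a replication factor that works with the replicative helicase and polymerase. Its values were 8.80, 8.86 and 8.77 in control cells at 12 h, 8.63, 8.72 and 8.53 with Ra at 12 h, 4.63, 5.72 and 6.12 in control cells at 48 h, and 7.22, 7.50 and 8.35 with Ra at 48 h. At 12 h the groups were 0.18 apart on average, and at 48 h controls had dropped to between 4.63 and 6.12 while Ra cells read at least 7.22. The shift was 2.39 ± 0.48 (SE, limma, adjusted p = 0.017), a 5.23-fold change in the ratio of Ra to control, and its other probe sets gave 1.37 and 1.57. ASF1B, a chaperone that brings histones to new DNA, read 9.92, 10.13 and 9.81 in control cells at 12 h, 10.11, 10.42 and 10.02 with Ra at 12 h, 6.95, 7.91 and 8.31 in control cells at 48 h, and 9.53, 10.09 and 10.48 with Ra at 48 h. Controls at 48 h were the only group under 9, and the shift was 2.08 ± 0.43 (SE, limma, adjusted p = 0.0178). CCNE2, the E-type cyclin that starts S phase, shifted by 1.82 ± 0.40 (SE, limma, adjusted p = 0.0215), and CCNE1 by 1.80 (limma, adjusted p = 0.0145). The helicase subunits MCM2, MCM3, MCM5 and MCM7 shifted by 1.10, 1.20, 1.23 and 0.94, and all passed, while MCM4 at 1.14 and MCM6 at 0.95 did not (limma, adjusted p = 0.0621 and 0.0764). LIG1, UHRF1 and GINS2, whose promoters are printed above, shifted by 1.68, 1.68 and 1.49. CDC6, a loader of that helicase with the E2F letters in its window, went the other way, at -1.17 without passing (limma, adjusted p = 0.205), and ORC1 at 2.07 did not pass (adjusted p = 0.0803). The 20 became 39 with control array 3 of 48 h left out, 30 with Ra array 1 of 48 h left out and 2 to 11 with any 1 of the others left out; with the deposited values unscaled it was 0.

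Genes of G2 and mitosis gave 21 higher and 0 lower calls among 42, with a median of 1.07 and a positive shift in all 42. The median effect was -0.11 at 12 h and 0.93 at 48 h. SPC25, a kinetochore subunit, read 10.27, 10.50 and 10.30 in control cells at 12 h, 10.17, 10.52 and 10.27 with Ra at 12 h, 7.24, 7.83 and 9.15 in control cells at 48 h, and 9.68, 10.24 and 10.24 with Ra at 48 h. The 12 h groups overlapped, and at 48 h the controls spread from 7.24 to 9.15 with all Ra arrays above them. The shift was 2.01 ± 0.50 (SE, limma, adjusted p = 0.0299), called in 3 of the 12 fits with 1 array left out. KIF20A, a motor of cytokinesis, shifted by 1.54 ± 0.34 (SE, limma, adjusted p = 0.0217), and MKI67, the proliferation antigen Ki-67, by 1.51 ± 0.38 (SE, limma, adjusted p = 0.0304), with 1.57 to 2.44 for its other probe sets. FOXM1, the factor that drives many mitotic genes, shifted by 1.43 (limma, adjusted p = 0.0308), and the kinases AURKA and AURKB by 1.30 (adjusted p = 0.0334) and 1.13 (adjusted p = 0.0485). The kinase PLK1, at 1.71, did not pass (limma, adjusted p = 0.0945). The level of the list was -1.80, -1.28 and -0.61 on the control arrays at 48 h and -0.42, -0.25 and -0.06 on the Ra arrays. The 21 became 39 with control array 3 of 48 h left out, 26 with Ra array 1 of 48 h left out and 0 to 13 with any 1 of the others left out; with the deposited values unscaled it was 0.

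**Figure D4:**
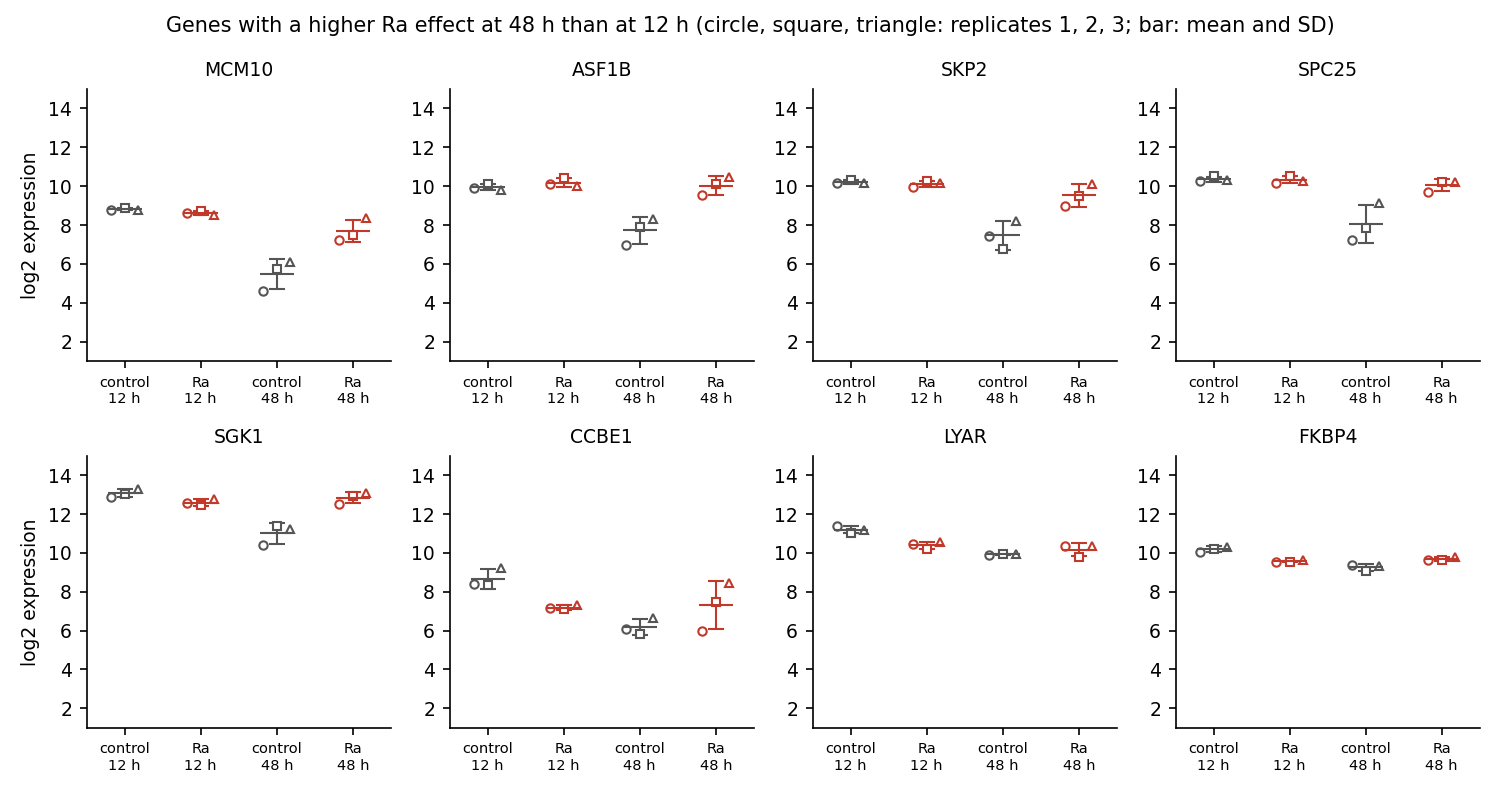
Log2 expression of 8 genes called higher on each of the 12 arrays, by group. Circles, squares and triangles are replicates 1, 2 and 3, the long bar is the mean and the whiskers are 1 SD. For MCM10, ASF1B, SKP2, SPC25 and SGK1 the controls at 48 h stand below the other 3 groups. For LYAR and FKBP4 Ra is below control at 12 h.

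Among G1 cyclins, their kinases and inhibitors 1 of 13 was called higher and 0 lower, a share near the 6.18% of all genes called higher, and the count was 0 to 3 with 1 array left out. CCND3 was that gene, at 1.04 ± 0.25 (SE, limma, adjusted p = 0.0276), and CCND1 at 1.76 did not pass (limma, adjusted p = 0.0627). SKP2, the ubiquitin ligase subunit that marks the inhibitor p27 for destruction, read 10.14, 10.31 and 10.16 in control cells at 12 h, 9.96, 10.25 and 10.17 with Ra at 12 h, 7.42, 6.76 and 8.23 in control cells at 48 h, and 8.96, 9.51 and 10.13 with Ra at 48 h. Controls at 48 h were below every other array, and the shift was 2.14 ± 0.46 (SE, limma, adjusted p = 0.0201). CCNF, a further ubiquitin ligase subunit of G2, shifted by 2.19 ± 0.45 (SE, limma, adjusted p = 0.0172). Of 11 tubulins, the subunits of microtubules, 4 were called higher and 0 lower, with a median of 0.79; the largest called was TUBB4B, at 1.13 ± 0.25 (SE, limma, adjusted p = 0.022). Without any 1 array the tubulin count lay between 0 and 8, with 8 with control array 3 of 48 h left out and 0 without any 1 of 5 others, and with the deposited values unscaled it was 0.

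In some lists the median Ra effect was below 0 at 12 h. The heat shock proteins and chaperonins, a list mostly of cytosolic proteins, had a median effect of -0.25 at 12 h and 0.05 at 48 h. Here too controls moved more with time, by a median of -0.41 against -0.11 with Ra. The list's level against the 12 h control mean was -0.46, -0.43 and -0.47 on the control arrays at 48 h. On the Ra arrays it was -0.25, -0.31 and -0.24 at 12 h and -0.45, -0.61 and -0.29 at 48 h. Among 24 tested 7 were called higher and 1 lower, where 6.18% and 6.59% of all genes were. FKBP4, a co-chaperone of HSP90, read 10.05, 10.22 and 10.33 in control cells at 12 h, 9.54, 9.54 and 9.61 with Ra at 12 h, 9.38, 9.07 and 9.30 in control cells at 48 h, and 9.63, 9.65 and 9.78 with Ra at 48 h. Ra was below control at 12 h (-0.63, limma, adjusted p = 0.0241) and above it at 48 h (0.43, adjusted p = 0.0145), with no overlap at either time. The shift was 1.07 ± 0.16 (SE, limma, adjusted p = 0.0134), called in all 12 fits with 1 array left out. The other 6 were the chaperonin subunits CCT3, CCT5 and CCT7, the co-chaperones STIP1 and DNAJA1, and the mitochondrial HSPE1. HSPB8 was the 1 called lower, at -0.66 (limma, adjusted p = 0.0363). Without any 1 array the 7 became 1 to 7, lowest with Ra array 1 or 2 or control array 3 of 12 h left out, and with the deposited values unscaled 0.

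Ribosome biogenesis genes had a median effect of -0.45 at 12 h and -0.17 at 48 h, and 4 of 30 were called higher and 0 lower. Of all tested genes 6.18% were called higher and 12.8% in either direction, the latter near the share in this list. LYAR, a nucleolar factor, averaged 11.19 ± 0.18 (SD, n = 3) in control cells at 12 h and read 10.45, 10.20 and 10.55 with Ra at 12 h, 9.89, 9.93 and 9.94 in control cells at 48 h, and 10.35, 9.80 and 10.36 with Ra at 48 h. Ra was below control at 12 h (-0.79, limma, adjusted p = 0.031) with no overlap, and the groups overlapped at 48 h (0.25, adjusted p = 0.237). The shift was 1.04 ± 0.22 (SE, limma, adjusted p = 0.0201). MRTO4, GRWD1 and the methyltransferase fibrillarin (FBL) were the other 3, at 0.80, 0.77 and 0.65. Every Ra array at either time had a list level between -0.48 and -0.40 against the 12 h controls, and the control arrays at 48 h read -0.36, -0.10 and -0.35. The median shift of 0.19 turned negative in 2 of the 28 alternative settings, with values down to -0.06. Without any 1 array the 4 became 0 to 7, with 0 with Ra array 1 or 2 or control array 3 of 12 h left out, and with the deposited values unscaled 0.

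**Figure D5:**
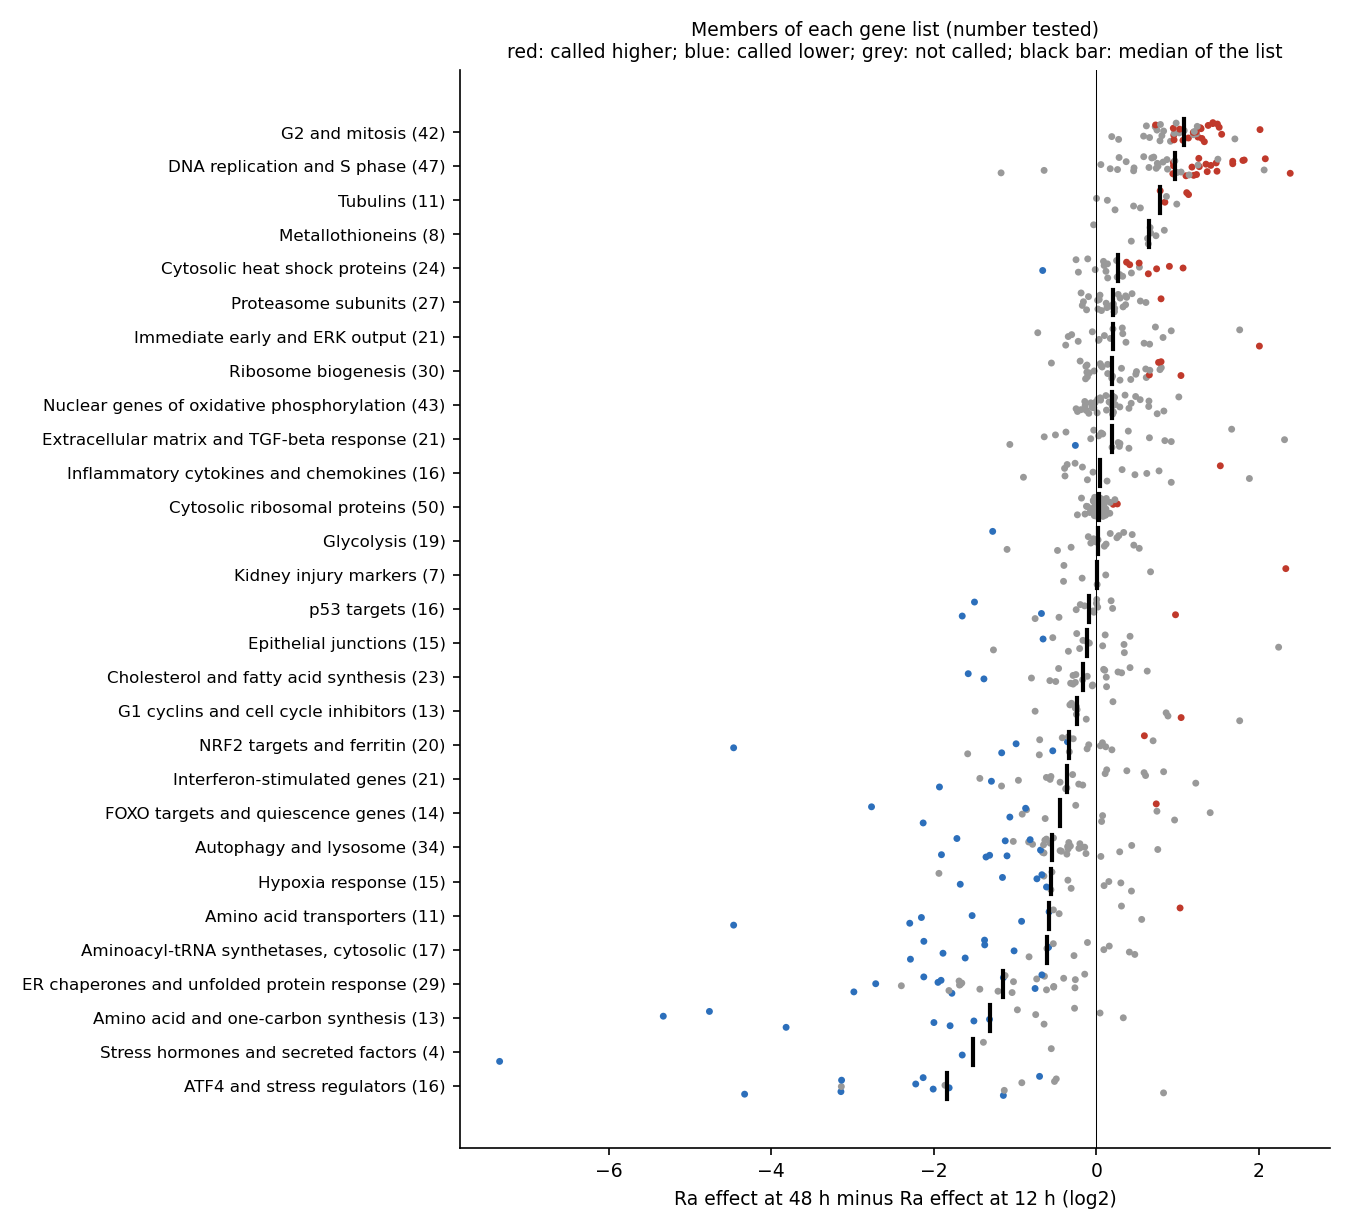
The shift in log2 units (x) of each tested member of 29 gene lists (rows, with the number tested). Red points were called higher, blue points lower and grey points not called, and the black bar is the median of the list. Medians run from -1.84 for ATF4 and stress regulators to 1.07 for G2 and mitosis, and the ribosomal protein points lie within -0.23 to 0.26.

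Several housekeeping systems were also counted, to be read against the 6.18% of all genes called higher and 6.59% called lower. Of 50 cytosolic ribosomal proteins 2 were called higher (RPL22 and RPL23A) and 0 lower, and all lay between -0.23 and 0.26. Of 43 nuclear genes of oxidative phosphorylation 0 were called by limma in either direction, 11 had an unadjusted p under 0.05, and the median was 0.19. With control array 3 of 48 h left out, 10 of the 43 and 10 proteasome subunits were called higher. Of 27 proteasome subunits PSMD1 alone was called, at 0.80. Glycolysis had 1 call among 19, PDK1, the kinase that restrains pyruvate dehydrogenase, at -1.28 ± 0.20 (SE, limma, adjusted p = 0.0134). Cholesterol and fatty acid synthesis had 2 lower calls among 23, STARD4 and HSD17B7. GAPDH shifted by 0.02 (limma, adjusted p = 0.88), and ACTB by 0.31 (adjusted p = 0.0274). ACTB lost its call in 16 of 28 alternative settings, and its 5 other probe sets gave 0.12 to 0.23.

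Further genes with large called shifts were of several kinds, and SOX9 and FOSL1 among them belong to the lists of kidney injury markers and of ERK output. Of 21 tested genes of ERK output FOSL1 alone was called, a share below the 6.18% of all genes called higher. SGK1, a kinase induced by glucocorticoids and growth factors, read 12.89, 13.02 and 13.30 in control cells at 12 h, 12.55, 12.45 and 12.78 with Ra at 12 h, 10.39, 11.38 and 11.24 in control cells at 48 h, and 12.53, 12.93 and 13.10 with Ra at 48 h. Ra cells stayed between 12.44 and 13.10 while controls fell from at least 12.89 at 12 h to at most 11.38 at 48 h. Its shift was 2.32 ± 0.32 (SE, limma, adjusted p = 0.0134), called under all 28 alternative settings. SOX9, a factor of renal tubule repair, shifted by 2.33 ± 0.68 (SE, limma, adjusted p = 0.0437), called in 2 of the 12 fits with 1 array left out, and FOSL1, an AP-1 subunit, by 2.01 ± 0.57 (SE, limma, adjusted p = 0.0411). NT5E, the ectoenzyme CD73, shifted by 2.13 ± 0.53 (SE, limma, adjusted p = 0.0302), but its other probe sets gave 0.04 and 0.55. CCBE1, a secreted factor of lymphatic growth, read 8.37, 8.33 and 9.25 in control cells at 12 h, 7.15, 7.09 and 7.31 with Ra at 12 h, 6.09, 5.82 and 6.66 in control cells at 48 h, and 5.98, 7.48 and 8.43 with Ra at 48 h. Ra was below control on all arrays at 12 h, and at 48 h the groups overlapped. Its shift was 2.57 ± 0.68 (SE, limma, adjusted p = 0.0344), called in 2 of the 12 fits with 1 array left out. DPYSL3 and LRRN4 shifted by 2.32 and 2.22 (limma, adjusted p = 0.0319 and 0.0335).

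On the lower side outside the lists, BEX2 and NIBAN1 were among the largest. NIBAN1, a stress-induced protein linked to translation, read 8.53, 8.35 and 8.43 in control cells at 12 h, 9.63, 9.34 and 9.54 with Ra at 12 h, 11.81, 11.38 and 9.88 in control cells at 48 h, and 9.36, 8.32 and 8.89 with Ra at 48 h. Ra was above control on all arrays at 12 h and below all controls at 48 h. Its shift was -3.24 ± 0.55 (SE, limma, adjusted p = 0.0142), called in all 12 fits with 1 array left out, and BEX2 shifted by -3.85 ± 0.65 (SE, limma, adjusted p = 0.0142). SLFN5, a Schlafen family member, shifted by -3.17 ± 0.65 (SE, limma, adjusted p = 0.0172), and its 4 other probe sets gave -4.63 to -2.22. ATOSA shifted by -3.22 (limma, adjusted p = 0.0142) and the co-chaperone DNAJC12 by -3.49 (adjusted p = 0.0345). ANK2, an ankyrin, shifted by -5.19 ± 0.92 (SE, limma, adjusted p = 0.0142) and, like ALDH1L2, passed the expression filter through 1 group only. In all, 41 tested genes passed the filter through 1 group only, and 10 of these were called.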

How the data were processed

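RNA from the 12 samples was measured on Affymetrix arrays. The deposited log2 values came from GCRMA per the submitters' processing notes; its version is not given in the sources used. Of 54675 probe sets, 41097 had 1 gene symbol, 1801 several and 11777 none in the annotation used. Arrays were quantile-normalized, and limma 3.58.1 (R 4.3.3) fitted 4 group means with an intensity trend on 8 residual degrees of freedom, after a check on simulated data. The simulated data had 1 spread per gene in all groups, so that check does not cover the wider spread at 48 h. No arrays held identical values; their number limits the precision.

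Members and gene lists were chosen with earlier results of these data known. Named genes were the 12 largest called shifts each way that kept their sign without each array, up to 4 per list by size, up to 8 with opposite effects of at least 0.5, and GAPDH and ACTB; other list members were named after their values were seen. Alternatives varied scaling, filter, probe set choice, variance model, weights, replicate block and arrays. Same-numbered Ra and control arrays had correlated deviations at 12 h (r of 0.213, 0.524 and 0.372). So had Ra 48 h arrays with control 12 h arrays (0.238, 0.125 and 0.171) and with Ra 12 h arrays (0.153, 0.0654 and 0.205). Ra and control arrays at 48 h had not in every pair (0.313, -0.229 and 0.133). Nor had control 48 h arrays with control 12 h arrays (0.025, -0.00859 and 0.0741) or with Ra 12 h arrays (-0.0648, 0.0338 and 0.00831). The main fit therefore did not pair samples by number, and counts with a replicate block are given below.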

Additional observations from a re-analysis of the deposited data

Results flagged for a closer look

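The test of the difference between the Ra effects at the times passed for 510 genes with a higher and 544 with a lower effect at 48 h (limma, Benjamini-Hochberg adjusted). The largest single differences by that test, in log2 units, were -7.34 for INHBE, -5.33 for ALDH1L2, -5.19 for ANK2, -4.76 for CTH, -4.46 for SLC7A11, -4.33 for ATF3, -3.85 for BEX2 and -3.82 for ASNS. These 8 were picked among called genes for Ra effects of opposite sign, each at least 0.5, so opposite signs were built into the choice. In all 8 the mean Ra effect was above 0 at 12 h and below 0 at 48 h. None of the 12 h effects passed (limma, adjusted p from 0.251 to 0.792). ALDH1L2 and ANK2 passed the expression filter only through the controls at 48 h, where they were high.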

How the results depend on the processing

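Of 1054 called genes (510 higher, 544 lower), other settings gave the following numbers. The deposited values unscaled gave 43 (1 higher, 42 lower), and centring each array on its median gave 34 (1 and 33). With replicate 2 of Ra at 48 h also left out, an alternative chosen after seeing the data, these became 423 (216 and 207) and 376 (236 and 140). Without an expression filter 70 of 19775 tested genes were called (25 and 45). Without probe sets of types _x_at, _s_at and _a_at, 673 were called (316 and 357). That setting tested 5550 genes against 8251 in the main fit, so its lower count goes with fewer genes tested. With array weights 3202 were called (1647 and 1555). A 2-fold minimum left 469 (205 and 264). With a replicate block, the number was 1438 (721 and 717), and with the replicate block within each time 1575 (816 and 759); the labels do not say what a number shares. Under these blocks the calls were 27 and 34 for replication (20 without), 29 and 34 for mitosis (21), 14 and 15 for autophagy (8), and 4 and 4 for oxidative phosphorylation (0). With 1 array left out, the numbers ranged from 109 to 2366 in all, from 41 to 1260 higher and from 68 to 1106 lower. The cause was not tested. The other settings stayed within 1.5 times. No called gene among the 128 named changed sign under any of the 28 settings. Calls were made on these same arrays, so this was close to built in. Of the 3520 values, 2613 kept direction and side of the threshold, 743 lost the call, 155 gained it and 9 turned the sign of uncalled genes: STC2 reached 0.03 with Ra array 3 of 48 h left out, and GAPDH kept its sign in 20 settings, down to -0.12. The median of 21 of 29 lists kept its sign in all 28 settings. With 3 arrays a group, and values near the bottom of the scale in some groups, small shifts of dim genes were not detectable.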

Other observations

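Metallothioneins, which bind zinc and copper, had a median shift of 0.65 over 8 tested genes, with 7 of 8 positive. By limma 0 were called in either direction, and 2 had an unadjusted p under 0.05. Without control 48 h replicate 3, 7 were called higher. Their mean level at 48 h was -1.20 and -1.25 on control replicates 1 and 2 but -0.13 on replicate 3, against -0.35, -0.09 and 0.18 with Ra.

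The counts in the next lists are to be read against the 12.8% of all tested genes that were called. Among 16 p53 targets 3 were called lower and 1 higher, a larger share than that. GDF15, counted above among the stress hormones, was 1 of the 3. The 3 became 0 to 3 with 1 array left out, and 1 with the deposited values unscaled. The counts of the lists named after the p53 targets lie near or below the 12.8% and do not set those lists apart. GADD45A, a growth arrest gene, shifted by -1.50 (limma, adjusted p = 0.0161), and the death receptor gene FAS by 0.97 (adjusted p = 0.0328). CDKN1A, the p21 inhibitor, did not pass, at -0.75 (limma, adjusted p = 0.174). Of 16 inflammatory genes 1 was called, TNFSF10 (TRAIL), higher by 1.53 (limma, adjusted p = 0.0343). Of 7 kidney injury markers SOX9 alone was called. Of 21 matrix genes FN1 alone was called, lower by 0.26 units (-0.26, limma, adjusted p = 0.0394), and THBS1 at 2.32 did not pass (adjusted p = 0.0531). Of 15 epithelial junction genes the desmoglein DSG2 alone was called, at -0.66 (limma, adjusted p = 0.0307).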
